A study of Mus musculus with 31 samples.

Results

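The comparison described here sets the uterus of mice of the MISS line that carry the mutation (MISS KO) against the uterus of their wild-type counterparts (MISS WT) when no estrogen was given. Its members are the 4 arrays labelled MISS KO and the 4 arrays labelled MISS WT among the placebo samples, 8 of the 31 arrays of the series, with all 55681 non-control probes. The labels place both groups on the C57BL6/N background. Every mouse had been ovariectomised at 4 weeks of age, was kept for 3 weeks on normal chow and was sampled 6 h after castor oil was injected subcutaneously, which held 0 µg/kg of 17β-estradiol (E2) in these 8 samples. The labels do not name the allele. From knowledge outside the labels, the MISS mutation lies in Esr1, the gene of estrogen receptor α (ERα), and gives a receptor that cannot be palmitoylated, so that it is missing from the plasma membrane while the nuclear receptor remains; it is present in every cell of the animal, and the word KO does not mean that the gene is deleted. Used beside these groups are 4 MISS KO and 4 MISS WT samples given 8 µg/kg of E2, and the AF2 line on C57BL6/J, whose mutant ERα lacks activation function 2 and whose wild type was also sampled under placebo and E2 (4 samples in each of these 3 groups).

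ERα is a ligand-activated transcription factor. In the nucleus it binds DNA and recruits coactivators through activation function 2, while a palmitoylated pool at the plasma membrane couples to kinase and nitric oxide signalling. The uterus is one of its main targets: estradiol raises water content, secretion and growth of the epithelium, and ovariectomy removes most of the circulating hormone, so that placebo-treated uteri show the low-estrogen state. The question the comparison addresses is what the uterine transcriptome of the mutant looks like before any hormone is added.

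Levels are log2 values of the processed array signal relative to the 75th percentile of each array, so that 0 is that percentile and 1 unit is 2-fold. The 75th percentile of the 8 arrays lay between 673 and 918 intensity units, 68.5 to 76.0% of probes were well above background on them, and no probe was saturated. Of the probes, 40332 could be tested, because in 1 or more of the 8 groups of the series all arrays gave a signal well above background, and they represented 27056 genes, 3940 of them intervals of long intergenic noncoding RNA (lincRNA). The RNA had the defining genes of uterus in both groups: the homeobox gene Hoxa10 had mean levels of 2.79 in MISS KO and 3.06 in MISS WT, and the smooth muscle genes Acta2 and Myh11 had 7.78 and 4.4 in MISS KO and 8.04 and 4.73 in MISS WT. Nothing in the labels beyond a number in each title says that the samples are separate animals, so p-values measure the spread between samples. The limma p-values take that spread from within all 8 groups of the series, 31 arrays, and not from the compared arrays alone. Each of 4 slides carried 1 MISS KO and 1 MISS WT placebo array, and the replicate numbers 1 to 4 used here follow those slides. In whole uterus, fewer cells of a type and less RNA per cell cannot be told apart.

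The transcript of the receptor itself did not pass the test. Esr1 had levels of 3.25, 3.22, 3.38 and 3.19 in MISS KO and of 3.26, 3.07, 3.18 and 3.32 in MISS WT. The groups overlapped, and the difference was 0.05 ± 0.12 (SE; limma adjusted p = 0.96). A probe for the Esr1 transcript does not read the mutated codon, so this value does not check the labels. Esr2, the gene of ERβ, differed by 0.04, the progesterone receptor gene Pgr by -0.01, the growth factor gene Igf1 by -0.08 and Gper1, the gene of a membrane estrogen receptor unrelated to ERα, by -0.02, and none of them passed the test. Nnt, a mitochondrial transhydrogenase gene whose loss is a known mark of the C57BL/6J substrain, had mean levels of 3.4 and 3.32 in MISS KO and MISS WT, against 2.42 and 2.28 in AF2 KO and AF2 WT under placebo.

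The means compared were of 4 arrays against 4, and the spread was estimated over all 31 arrays. At a Benjamini-Hochberg adjusted p under 0.05 in limma, 230 of 27056 genes (0.85%) differed between the genotypes. Of these, 108 (0.399% of all tested) were higher in MISS KO and 122 (0.451%) were lower, and 90 of them differed at least 2-fold, 33 higher and 57 lower. The median difference of all genes was 0.03. The 4 MISS KO values lay wholly above or below the 4 MISS WT values for 209 of the 230 genes, where 5.7% of all genes showed this, and 228 had the same sign on each of the 4 slides, where 23.2% of all genes did. The values of the MISS WT arrays were more spread than those of MISS KO: for 179 of the 230 genes (77.8%) the SD of MISS WT was the larger one, as it was for 63.9% of all genes, with a median SD over the called genes of 0.17 in MISS KO and 0.29 in MISS WT. lincRNA intervals made up 15 of the 230 (6.52%, against 14.6% of all genes tested), 11 of them higher and 4 lower. Genes with a mean level under -2 made up 70 of the 230 (30.4%) and 39.2% of all tested.

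**Figure D1:**
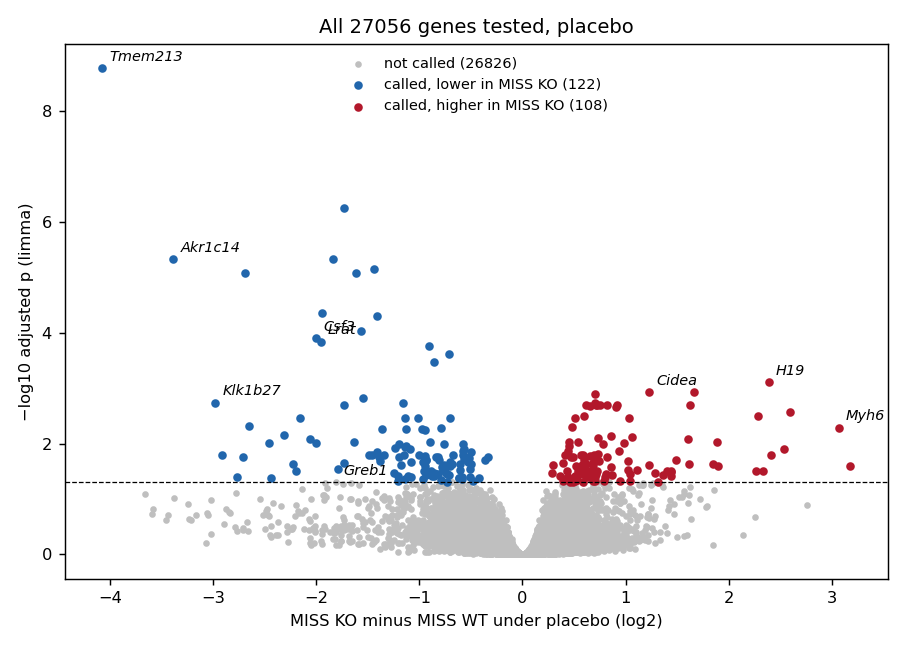
Difference MISS KO minus MISS WT under placebo (log2, x axis) against the −log10 of the limma adjusted p (y axis), with 1 point per gene for all 27056 genes; the dashed line marks an adjusted p of 0.05. Of the genes, 108 are called higher and 122 lower, and Tmem213 stands highest, on the left side, followed by 4930562F07Rik.

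The count of calls moved with single arrays. It became 99, 110, 139 and 146 without MISS KO replicate 1, 2, 3 and 4, and 119, 283, 59 and 672 without MISS WT replicate 1, 2, 3 and 4. With the slides as a block in the model of all 31 arrays, 839 genes (3.1%) were called, 481 (1.78%) higher and 358 (1.32%) lower, and all 230 were among them. In each of the 8 fits without 1 array the 230 genes kept their sign, and 53 of them (21 higher, 32 lower) were called in all 8. Many of the genes described next belong to these 53, and for others the arrays on which the call rested are named beside their values. Fitted on the 8 arrays alone, the model called 18 genes, 17 of them among the 230, and the named genes it kept were Tmem213, Akr1c14, Csf3, Emb, Klk1b27, Klk1b24, 4930562F07Rik, 4833419O12Rik, 9330159F19Rik and Lag3; with the slides as a block in those 8 arrays it called 0, with 3312 genes at an unadjusted p under 0.05 against 3009 in the fit of all 31 arrays. Fitted on the 16 arrays of the MISS line, it called 78, of which 71 were among the 230; of the named genes called in all 8 fits above, Myh6 (limma adjusted p = 0.0802), 5430401H09Rik (0.0526), Bst2 (0.0515), Med24 (0.112) and Kcne4 (0.0622) were lost there.

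The 2 genes furthest below wild type were Tmem213, which encodes a small transmembrane protein, and Akr1c14, which encodes the 3α-hydroxysteroid dehydrogenase that reduces dihydroprogesterone and dihydrotestosterone. Tmem213 (probe at chr6:38065689-38065748, mm9) had levels of -4.32, -5.6, -4.93 and -4.62 in MISS KO and of -0.55, -0.38, -1.55 and -0.68 in MISS WT. All mutant values lay more than 2 units below every wild-type value. The difference was -4.08 ± 0.28 (SE; limma adjusted p = 1.66e-09), or 16.9-fold lower in MISS KO. Akr1c14 (chr13:4089325-4089383, mm9) had levels of -3.02, -2.34, -2.18 and -2.48 in MISS KO and of 1.36, 0.07, 1.57 and 0.53 in MISS WT. The groups did not overlap, with slides 1 and 3 the furthest apart, and the difference was -3.39 ± 0.35 (limma adjusted p = 4.58e-06), 10.5-fold. These 2 genes parted under E2: Akr1c14 still differed by -3.34 on the E2 arrays (limma adjusted p = 2.48e-06), while Tmem213 was at a mean of 3.38 in MISS KO and 3.91 in MISS WT, a difference of -0.53, and the change of its genotype difference from placebo to E2 was 3.55 (limma adjusted p = 3.5e-05).

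Csf3, Oxtr and Tacr1 fell, while other ligand and receptor genes, among them Penk and Epha7, were higher in MISS KO. Csf3 encodes granulocyte colony-stimulating factor, a cytokine of neutrophil production; it had levels of -4.11, -4.42, -4.14 and -3.86 in MISS KO and of -2.29, -2.21, -2.41 and -1.62 in MISS WT. The groups were separate on every slide, by -2.0 ± 0.26 (SE; limma adjusted p = 0.000125), 4.01-fold. Oxtr, the oxytocin receptor of the myometrium, had levels of -0.82, -0.39, -0.55 and -0.63 in MISS KO and of 1.67, 0.34, 1.37 and 0.43 in MISS WT. Its wild-type values fell into a higher pair on slides 1 and 3 and a lower pair on slides 2 and 4, all above the mutant, and the difference was -1.55 ± 0.24 (limma adjusted p = 0.00152). Tacr1, the receptor of substance P, had levels of -6.4, -5.79, -5.8 and -7.84 in MISS KO and of -3.93, -4.23, -4.22 and -5.21 in MISS WT. These are levels far below the 75th percentile; the groups did not overlap and differed by -2.06 ± 0.39 (limma adjusted p = 0.00828). Under E2 Oxtr had means of 3.81 in MISS KO and 3.98 in MISS WT, and Tacr1 of -3.65 and -3.58, and neither passed the test there.

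**Figure D2:**
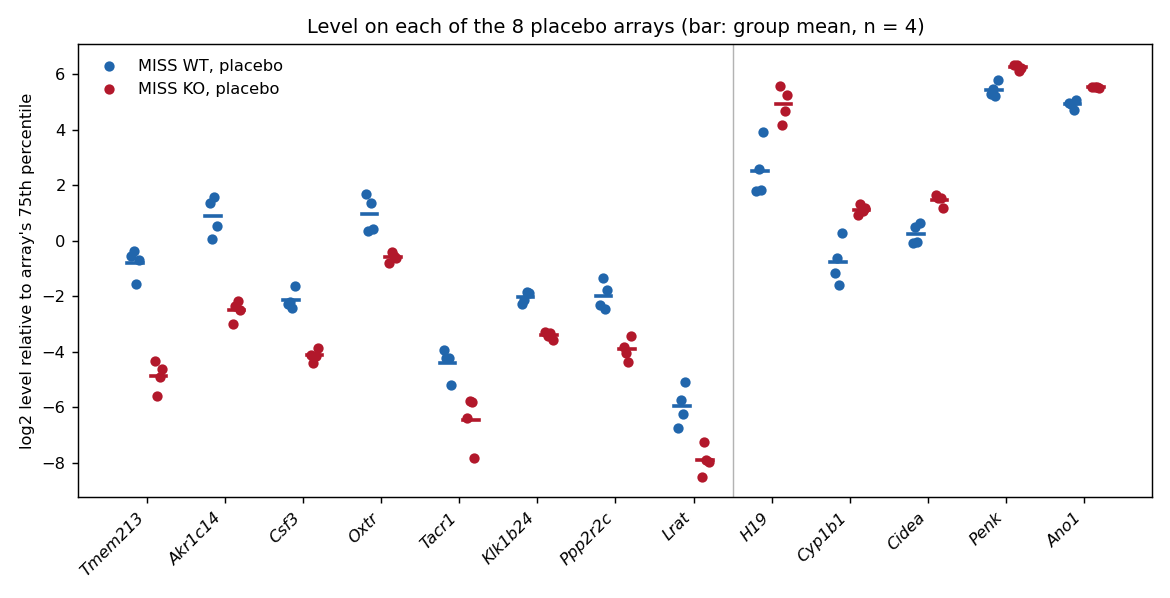
Level on each of the 8 placebo arrays (y axis, log2 relative to the 75th percentile of the array) of 13 called genes (x axis), with MISS WT and MISS KO as points in 2 colours and a bar at each group mean (n = 4). The first 8 genes are lower in MISS KO and the last 5 are higher; the MISS WT points of H19 and Cyp1b1 are spread more widely than the MISS KO points.

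Ppp2r2b and Ppp2r2c, 2 regulatory B subunits of protein phosphatase 2A, fell by 1.84 ± 0.19 and 1.95 ± 0.24 on the log2 scale (SE; limma adjusted p = 4.58e-06 and 4.37e-05). The MISS KO values of Ppp2r2c were -3.82, -4.04, -4.37 and -3.45 and the MISS WT values were -2.31, -1.36, -2.45 and -1.78, with no overlap. Myo5c, an unconventional myosin that moves secretory vesicles, fell by 1.62, and Tff2, a trefoil peptide of mucous epithelia, fell by 1.57 (limma adjusted p = 8.41e-06 and 9.28e-05). Tff2 was at -3.76, -3.76, -3.97 and -4.08 in MISS KO and at -2.16, -2.96, -2.14 and -2.04 in MISS WT, where the array of slide 2 stood closest to the mutant. Emb, an immunoglobulin-superfamily partner of monocarboxylate transporters, was tight in both groups, with 2.48, 2.14, 2.26 and 2.21 in MISS KO and 3.33, 3.09, 3.24 and 3.08 in MISS WT, and fell by 0.91 ± 0.12 (limma adjusted p = 0.000175). The homeobox gene Msx2 fell by 1.16 and the lipoprotein receptor gene Vldlr by 1.01 (limma adjusted p = 0.00181 and 0.00339). 4930562F07Rik, a gene of no known role, fell by 1.73 (limma adjusted p = 5.6e-07).

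Genes of potassium channels were examined as a family after Kcnk5 and Kcne4 had been seen among the called genes. Of 72 tested, 1 was called higher and 4 lower, where 0.399% and 0.451% of all genes were, and their median difference was -0.01, against 0.03 for all genes. The lower ones included Kcnk5, a background potassium channel, with -3.16, -2.85, -3.0 and -2.76 in MISS KO and -2.24, -2.13, -1.92 and -2.04 in MISS WT, a difference of -0.86 ± 0.12 (SE; limma adjusted p = 0.000341). The groups did not overlap, and the same gene differed by -0.98 under E2 (limma adjusted p = 1.69e-05). Kcne4, an auxiliary subunit, differed by -1.14, and the silent subunit Kcnv2, whose mutant signal was not well above background, was at least 1.38-fold lower in MISS KO.

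The tissue kallikreins, serine proteases encoded by a cluster on chromosome 7 and known in the mouse uterus for their response to estrogen, lay below wild type as a family. This family was picked after its values were seen: 12 of 12 tested Klk1 and Klk1b genes had a difference below 0, where 42.3% of all genes had, the median was -0.77 and 4 were called lower, where 0.451% of all genes were. The median was -0.58, -1.05, -1.09 and -0.96 on slides 1 to 4. Klk1b24 had levels of -3.29, -3.42, -3.31 and -3.57 in MISS KO and of -2.28, -2.12, -1.86 and -1.89 in MISS WT, without overlap, and differed by -1.36 ± 0.25 (SE; limma adjusted p = 0.00538). Klk1 had -4.58, -4.41, -4.22 and -4.37 in MISS KO and -3.85, -3.23, -3.38 and -3.31 in MISS WT, and differed by -0.95 ± 0.17 (limma adjusted p = 0.00575). Klk1b27 was not well above background on any MISS KO array and was at least 2.73-fold lower there than in MISS WT (limma adjusted p = 0.00181; 0.0583 with normexp background correction, which ends the call). Klk1b4 differed by -1.2 (limma adjusted p = 0.0177), and lost its call without MISS KO replicate 3 (0.0717), MISS KO replicate 4 (0.0793) or MISS WT replicate 3 (0.0926). The family kept its direction under E2, where 11 of the 12 were called lower, against 1.95% of all genes, and the median was -1.49. It had a median of -1.37 in AF2 KO minus AF2 WT under placebo.

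Members of this family are near-identical copies, and probes for one may bind transcripts of another, so the values of single members are uncertain. Their likeness extends to the promoters, which are shown for that likeness, and the part of the promoters in the differences was not tested. The 100 bases before the annotated start of 3 called members, from RefSeq on GRCm38.p6 and all on the plus strand, are printed with capitals marking the 13-base run common to the 3.
Klk1b4: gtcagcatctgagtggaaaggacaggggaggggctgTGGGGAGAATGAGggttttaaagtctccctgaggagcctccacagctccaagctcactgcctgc
Klk1b24: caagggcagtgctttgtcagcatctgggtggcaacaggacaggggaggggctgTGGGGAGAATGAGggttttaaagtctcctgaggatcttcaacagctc
Klk1b27: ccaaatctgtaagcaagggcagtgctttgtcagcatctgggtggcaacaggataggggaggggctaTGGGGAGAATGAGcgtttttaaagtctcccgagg
They lie at chr7:44207333-44207432, chr7:44188136-44188235 and chr7:44052190-44052289. Over the 250 bases before the start, Klk1b24 and Klk1b27 were 87.2% identical, Klk1b4 and Klk1b24 78.0% and Klk1b4 and Klk1b27 75.2%. The run TGGGGAGAATGAG was taken from these 3 promoters, so its presence in them was fixed in advance. Searched on both strands, it was in 5 of 13868 promoters of tested genes (0.0361%), those of these 3 genes, Klk1b11 and Klk1b8. Neither Klk1b11 nor Klk1b8 was called. The palindromic estrogen response element was searched on both strands of the 250 bases before the start. It was in 0 of 58 promoters of genes called higher, 0 of 75 of genes called lower and 7 of the 13868 (0.0505%). At so small a share 0 is likely in sets of this size, so the search cannot tell whether called genes differ from others.

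Of the genes of retinol handling, again examined after their values were seen, 3 of 19 tested were called lower, where 0.451% of all genes were, and none higher, and the median was -0.13, against 0.03 for all genes. Lrat, the acyltransferase that stores retinol as retinyl ester, was not well above background in MISS KO and was at least 1.1-fold lower than in MISS WT; its fitted difference of -1.96 (limma adjusted p = 0.000143) became -0.24 (0.183) with normexp background correction and -0.39 (0.0777) in the authors' own normalized values. Rdh1 and Rdh10, dehydrogenases that turn retinol into retinal, differed by -0.93 and -0.73 (limma adjusted p = 0.0314 and 0.0351). Without MISS WT replicate 3 these became 0.13 and 0.161, without MISS WT replicate 1 they became 0.127 and 0.132, without MISS KO replicate 1 0.115 and 0.133 and without MISS KO replicate 2 0.0988 and 0.0933; Rdh1 was also lost without MISS KO replicate 4 (0.0938) and Rdh10 without MISS KO replicate 3 (0.0933).

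Among the genes higher in MISS KO, the imprinted noncoding RNA H19 was the most abundant of those with a large difference. H19 is expressed from the maternal allele and is known to restrain growth, in part as the host of a microRNA. Its levels were 5.58, 4.16, 4.69 and 5.27 in MISS KO and 1.79, 2.59, 1.83 and 3.91 in MISS WT. Every mutant array exceeded every wild-type array, although the wild-type array of slide 4 came close to the mutant array of slide 2. The difference was 2.39 ± 0.36 (SE; limma adjusted p = 0.00078), 5.26-fold. The array holds 7 tested probes for H19, of which 6 gave differences of 2.38 to 2.55 and the other gave 0.24. The probe used and the one that departs from it are printed to show that they read different stretches of the locus; they lie on the minus strand at chr7:149761492-149761551 and chr7:149762417-149762476 (mm9).
H19, probe used: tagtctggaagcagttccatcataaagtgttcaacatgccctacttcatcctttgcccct
H19, departing probe: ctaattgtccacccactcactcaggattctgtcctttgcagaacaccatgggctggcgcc
The departing probe was dim, with mean levels of -5.12 in MISS KO and -5.37 in MISS WT.

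In a list of 15 tested imprinted growth genes, collected after H19 had been seen, 3 were called higher, where 0.399% of all genes were, and none lower; 2 lay below 0, where 42.3% of all genes did, and the median was 0.28. The other called members, Meg3 and Mirg, come from the imprinted noncoding cluster of chromosome 12 and differed by 0.79 and 0.87 (limma adjusted p = 0.0474 and 0.0374). Their values overlapped or nearly met: Meg3 was at 5.51, 4.89, 4.76 and 5.28 in MISS KO and at 3.96, 4.58, 3.73 and 5.0 in MISS WT. Both lost the call without MISS KO replicate 1 (0.188 for Meg3 and 0.166 for Mirg), 2 (0.0629 and 0.0734) or 4 (0.128 and 0.0696) and without MISS WT replicate 1 (0.159 and 0.123) or 3 (0.233 and 0.196). Meg3 was also lost under quantile normalization (0.0619), scaling to the array median (0.0703) and normexp correction (0.053), in the authors' own normalized values (0.0625), with no filter on dim probes (0.0707) and over all probes (0.054).

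Other higher genes held in every fit that left out 1 array. Cidea, a lipid-droplet protein best known in brown fat, had levels of 1.65, 1.54, 1.54 and 1.17 in MISS KO and of -0.1, 0.51, -0.06 and 0.63 in MISS WT. The groups did not overlap and differed by 1.23 ± 0.19 (SE; limma adjusted p = 0.00117), 2.35-fold. Cidea was the only gene called among 11 tested adipocyte markers, where 0.399% of all genes were called higher. The median difference of those markers was -0.18 and ran from 1.17 on slide 1 to -1.6 on slide 3. The mean level of those markers was 0.37 to 2.41 over MISS KO arrays and -0.25 to 2.05 over MISS WT arrays, which overlap. Adipoq and Plin1 were among those tested, and Ucp1, the marker of brown fat, was not tested because in none of the 8 groups was it well above background on all arrays; the part of these cells in the Cidea result was not tested. Penk, the precursor of enkephalins and a gene of uterine stroma, was at 6.34, 6.35, 6.13 and 6.22 in MISS KO and at 5.29, 5.47, 5.21 and 5.79 in MISS WT. Ano1, a calcium-activated chloride channel of smooth muscle and pacemaker cells, was at 5.55, 5.53, 5.54 and 5.49 in MISS KO and at 4.97, 4.93, 4.7 and 5.06 in MISS WT. Both are abundant, neither overlapped, and they differed by 0.82 ± 0.13 and 0.62 ± 0.1 (limma adjusted p = 0.002 for each). For Ano1 the difference under E2 was turned round, at -0.66 (limma adjusted p = 0.000245), and the change between the treatments was -1.28 (limma adjusted p = 3.5e-05).

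Ncam1, a neural cell adhesion molecule, rose by 0.51 ± 0.09, and Col4a6, a chain of basement membrane collagen, by 0.6 ± 0.1 (SE; limma adjusted p = 0.00339 and 0.00322). Ncam1 was at 4.29, 4.22, 4.27 and 4.26 in MISS KO and at 3.72, 3.76, 3.68 and 3.84 in MISS WT, a narrow range within each group and a clear gap between them. The ephrin receptor gene Epha7 rose by 0.71, the transcription factor gene Atoh8 by 0.91 and Lag3, an inhibitory receptor of T cells, by 1.03 (limma adjusted p = 0.002, 0.00214 and 0.00339). Lag3 rose while the 18 lymphocyte markers had a median of -0.45 and no member called. Id3, an inhibitor of helix-loop-helix factors, was at 4.67, 4.85, 4.6 and 4.86 in MISS KO and at 3.86, 3.66, 3.59 and 4.42 in MISS WT; it differed by 0.86 (limma adjusted p = 0.00731), and 0.0546 without MISS WT replicate 3.

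Some large positive differences went with low signal on the MISS WT arrays of slides 1 and 3. Myh6, a cardiac myosin heavy chain, had 1.23, -0.1, -0.07 and 0.13 in MISS KO and -4.05, -0.43, -4.77 and -1.86 in MISS WT, a difference of 3.07 ± 0.55 (SE; limma adjusted p = 0.0051). It held in each fit without 1 array, but a second probe gave 0.77 and did not pass (limma adjusted p over all probes = 0.354). Cyp1b1, a cytochrome P450 that hydroxylates estradiol, had 0.91, 1.31, 1.07 and 1.18 in MISS KO and -1.18, -0.61, -1.59 and 0.28 in MISS WT. It differed by 1.89 ± 0.36 (limma adjusted p = 0.00923), and 0.0685 without MISS WT replicate 3. Its neighbour 1700038P13Rik was at 0.53, 0.77, 0.53 and 0.38 in MISS KO and -2.31, -1.43, -2.76 and -0.44 in MISS WT, and differed by 2.29.

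Pairs of this kind were counted, without the same count over all genes tested. Some were overlapping features or copies alike in sequence, whose probes may read the same transcripts. Of 228 called genes with a position, 31 lay within 100 kb of another called gene, in 13 places, and in all 13 the genes of a place moved the same way. They included Csf3 with Med24, a subunit of the Mediator complex (-0.76 ± 0.15, SE; limma adjusted p = 0.0103), Vldlr with Kcnv2, the kallikreins Klk1, Klk1b4 and Klk1b24, and 5430401H09Rik with a lincRNA interval that overlaps its locus. That interval, on the minus strand of chromosome 12, had 3 tested probes that differed by 1.63, 2.2 and 2.64. Its probe used here lies at chr12:32781562-32781621 (mm9) and is shown because the interval has no gene name.
Chromosome 12 interval: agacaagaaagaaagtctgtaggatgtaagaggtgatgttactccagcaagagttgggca
5430401H09Rik was at -3.7, -3.72, -3.53 and -3.97 in MISS KO and at -7.7, -6.49, -6.15 and -4.96 in MISS WT, separate on every slide, and differed by 2.6 ± 0.44 (limma adjusted p = 0.00265).

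The mutation lies in Esr1 on chromosome 10, and the genes beside it are inherited with it. Within 10 Mb of the Esr1 probe 87 genes were tested and 3 (3.45%) were called, within 20 Mb 165 were tested and the same 3 (1.82%) were called, and 0.85% of all genes were. Under E2, 1 of the 87 and 7 of the 165 were called, against 2.82% of all genes. The 3 called under placebo were higher in MISS KO, and the part of this shared inheritance in them was not tested. Samd5 was at -1.06, -1.25, -1.28 and -1.1 in MISS KO and -1.92, -2.08, -1.9 and -1.59 in MISS WT, and its neighbour 5830408B19Rik was at -1.12, -1.02, -1.26 and -1.31 and at -1.77, -1.85, -1.92 and -1.8. Both were separate without overlap, by 0.7 ± 0.11 and 0.66 ± 0.11 (SE; limma adjusted p = 0.00181 and 0.00208). Mtrf1l, a mitochondrial release factor, differed by 0.29 (limma adjusted p = 0.0333); leaving out MISS KO replicates 1, 2, 3 or 4 gave 0.0992, 0.112, 0.0678 and 0.0639, and leaving out MISS WT replicate 2 or 3 gave 0.0825 and 0.131.

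Lists of immune and interferon genes had medians below 0 with few called members. Of all genes tested, 42.3% lay below 0 and 0.451% were called lower. Of 22 tested interferon-response genes, all 22 lay below 0, the median was -0.55 and 1 was called lower; the median was -0.37, -0.79, -0.58 and -0.25 on slides 1 to 4, and the mean level of the list ran from 0.45 to 0.93 over MISS KO arrays and from 0.73 to 1.65 over MISS WT arrays, which overlap. The called gene was Bst2 (tetherin), at 3.69, 3.57, 3.32 and 3.24 in MISS KO and 4.22, 4.58, 4.33 and 3.83 in MISS WT. The groups did not overlap, and the difference was -0.79 ± 0.14 (SE; limma adjusted p = 0.0051). Of 8 tested genes of the interferon-inducible p200 family, taken after the values were seen, 2 were called lower and 8 lay below 0, with a median of -0.75. Ifi204 was at 1.1, 1.25, 0.9 and 1.17 in MISS KO and at 2.46, 2.56, 2.45 and 1.53 in MISS WT. It differed by -1.15 (limma adjusted p = 0.0158), and its p became 0.0538 without MISS KO replicate 3, 0.0603 without MISS WT replicate 1 and 0.0826 without MISS WT replicate 3.

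None of 13 macrophage markers, 18 lymphocyte markers or 11 genes of MHC class II presentation was called. With the slides as a block 3 of the macrophage markers, C1qa (-1.12, limma adjusted p = 0.0475), C1qc (-0.99, 0.0349) and Cx3cr1 (-0.97, 0.0497), and 1 MHC class II gene, H2-DMa (-0.99, 0.0378), were called lower, where 1.32% of all genes were. The medians of the 3 lists were -0.83, -0.45 and -0.66, with the widest gap on slide 2 each time (-1.81, -1.55 and -1.65) and values on slide 4 of 0.06, -0.08 and -0.15. The mean level of the macrophage markers ran from 0.84 to 1.36 in MISS KO and from 1.2 to 2.51 in MISS WT, which overlap, and that of the MHC class II genes from 1.19 to 1.5 and from 1.57 to 2.54, which do not. Of 20 cytokine and chemokine genes the median was -0.79 and Csf3 alone was called; the lowest was Ccl8, at -2.14 (limma adjusted p = 0.0649). Immunoglobulin variable segments were taken after 4 of them had been called lower, where 0.451% of all genes were. Of 84 tested, 81 lay below 0, where 42.3% of all genes did. Their medians were -2.69 and -2.86 on slides 1 and 3 and -0.24 and -0.65 on slides 2 and 4. The segment ENSMUST00000103399 was at -1.87, -2.49, -2.19 and -2.2 in MISS KO and 0.76, -1.38, 0.59 and 1.12 in MISS WT, with the wild-type array of slide 2 nearest the mutant; it differed by -2.46 (limma adjusted p = 0.00979), and 0.0545 without MISS WT replicate 3. Segments share sequence, so that signal from one segment on the probe of another cannot be told apart, and the part of immune cells in the genotype differences of other genes was not tested.

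**Figure D3:**
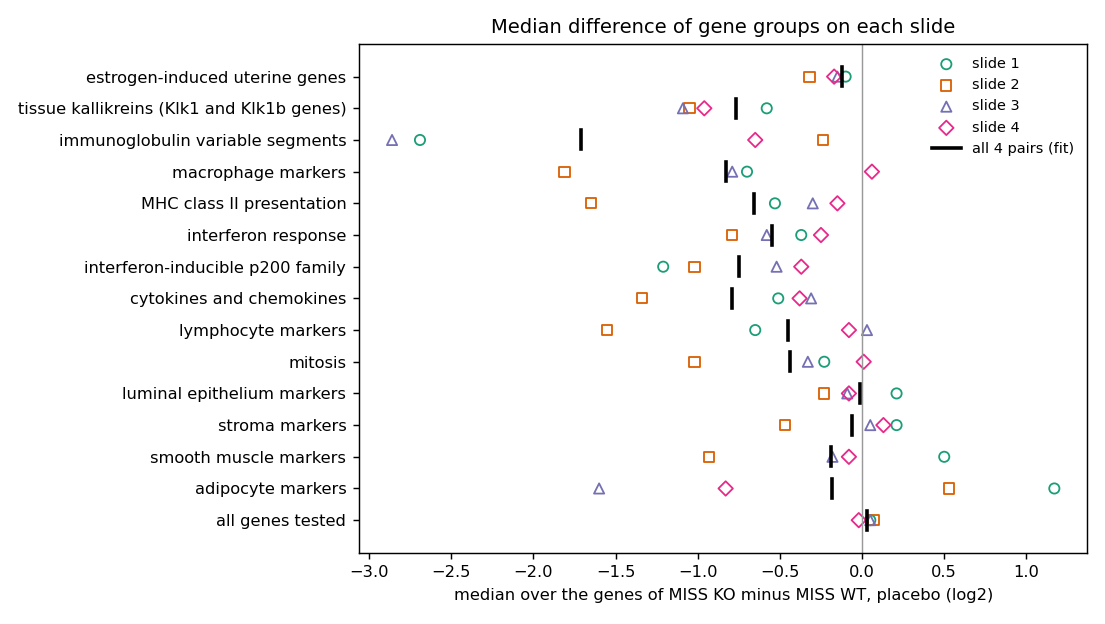
Median over the genes of each group (y axis) of MISS KO minus MISS WT under placebo (x axis, log2), within each of the 4 slides (open symbols) and in the fit of all 4 pairs (black bar). Of the groups drawn, the adipocyte markers and the immunoglobulin segments range most widely between slides, and the kallikreins are below 0 on all 4.

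The lists of other processes held few calls, where 0.85% of all genes tested were called. At that share a list of this size mostly holds none, so few calls say little about a process. Of 36 lists, 30 held no called gene, and their medians ran from -0.83 to 0.17. Among the other 6, Lgr5, a receptor of Wnt-amplifying R-spondins in gland stem cells, was the 1 gene called of 23 in the Wnt list and of 11 glandular epithelium markers, and Ier3 the 1 of 20 immediate early genes. Lgr5 was at 2.08, 1.99, 2.19 and 1.98 in MISS KO and 1.37, 1.52, 1.58 and 1.28 in MISS WT. It rose by 0.62 ± 0.14 (SE; limma adjusted p = 0.0234), with p of 0.0777, 0.0529 and 0.0832 without MISS KO replicates 1, 2 and 3 and of 0.0776 and 0.0543 without MISS WT replicates 1 and 3. Ier3 differed by -0.7 (limma adjusted p = 0.021), with p of 0.0574, 0.0568 and 0.0644 without MISS KO replicates 2, 3 and 4 and of 0.0831 and 0.0887 without MISS WT replicates 1 and 3. The 30 genes of membrane receptor signalling, which include kinases and G proteins that act with the membrane pool, had no call and a median of 0.04. The 19 mitosis genes had a median of -0.44, at -0.23, -1.02, -0.33 and 0.01 on slides 1 to 4, and no call. Chemosensory receptor genes, of which 368 were tested and which the uterus is not known to use, had no call and a median of 0.1.

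Genes that estradiol is known to induce in the uterus had a small negative median and no call. None of 34 tested was called, where 0.85% of all genes were, the median was -0.12 and 9 lay above 0. The mean level of the list was 0.91 to 1.03 on MISS KO arrays and 1.11 to 1.31 on MISS WT arrays, without overlap. The member furthest below was Greb1, a chromatin-bound partner of ERα, at -0.79, 1.07, 1.13 and -0.28 in MISS KO and 3.14, 1.11, 2.76 and 1.38 in MISS WT. Slides 1 and 3 of the wild type were high, and slide 2 showed almost no gap. The difference was -1.81 ± 0.45 (SE; limma adjusted p = 0.0501), just outside the threshold, and a second probe gave -1.52 (limma adjusted p over all probes = 0.043). Of 14 settings other than leaving out an array, 9 called Greb1, among them quantile normalization (0.0371), normexp correction (0.0177), the authors' own normalized values (0.0231) and the slides as a block (0.0106). Leaving out 1 array gave adjusted p between 0.0198 (without MISS WT replicate 4) and 0.213 (without MISS WT replicate 3). With the slides as a block 3 of the 34 were called lower, where 1.32% of all genes were. They were Greb1, the water channel gene Aqp8 (-0.76, limma adjusted p = 0.0322) and the receptor-modifying gene Ramp3 (-0.96, 0.0355).

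The response to E2 of the AF2 wild type, whose arrays enter neither mean compared here but share the estimate of spread and the probe filter, allowed the called genes to be read against estrogen regulation. In that response 57.6% of all genes were called, 27.6% higher and 30.1% lower. Of the 108 genes higher in MISS KO, 70 (64.8%) were among those lowered by E2 and 18 among those raised. Of the 122 genes lower in MISS KO, 53 (43.4%) were raised by E2 and 25 were lowered. Of the 732 genes that E2 raised at least 4-fold, 24 (3.28%, against 0.451% of all genes) were lower and 1 (0.137%, against 0.399%) higher in MISS KO, with a median difference of -0.07. Of the 937 that E2 lowered at least 4-fold, 18 (1.92%) were higher and 2 (0.213%) lower, with a median of 0.14. Of the 2252 genes raised 2- to 4-fold, 13 were lower and 7 higher, with a median of 0, and of the 2975 lowered 2- to 4-fold, 22 were higher and 9 lower, with a median of 0.09; the median of all genes was 0.03.

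The same sets gave a single value per array: the mean level of the E2-raised genes minus that of the E2-lowered genes, which no scaling of the array as a whole can change. It was 0.046, -0.005, -0.006 and 0.005 in MISS KO (0.00997 ± 0.0246, SD, n = 4) and 0.181, 0.541, 0.385 and 0.137 in MISS WT (0.311 ± 0.188, SD, n = 4). The mutant arrays were within a narrow band around 0, every wild-type array lay above them, and slides 2 and 3 of the wild type were highest. The gap of 0.301 is small beside the response itself, since the E2 arrays reached 5.241 to 5.612 in MISS WT and 4.818 to 5.195 in MISS KO. The exact permutation test of the 8 placebo values, two-sided, gave p = 0.0286, the smallest that 4 arrays against 4 can give. It exchanged arrays freely between slides, although each slide carried 1 array of each genotype. The measure was built after the called genes had been seen and includes some of them, so this p is no independent support. In the AF2 line under placebo it was 0.008, -0.228, -0.081 and 0.133 in AF2 WT, whose arrays took part in choosing the sets, and -0.101, -0.003, 0.108 and 0.111 in AF2 KO. The MISS WT arrays lay above all other placebo arrays, though the lowest of them, at 0.137, was next to the highest AF2 WT array, at 0.133. Because the AF2 WT arrays took part in choosing the sets, their place below MISS WT may be partly built in. The MISS KO values lay within the range of the AF2 line.

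**Figure D4:**
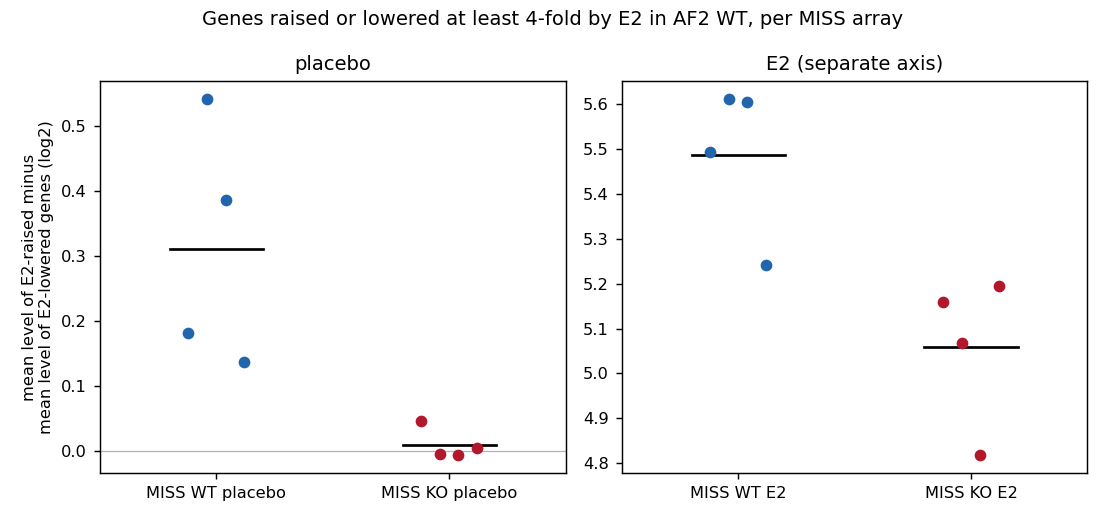
Mean level of 732 genes raised minus mean level of 937 genes lowered at least 4-fold by E2 in AF2 WT (y axis, log2), for each array by group, with placebo on the left and E2 on the right on a separate axis. The 4 MISS KO placebo arrays lie near 0 and the 4 MISS WT placebo arrays between 0.137 and 0.541.

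The genotype differences were then followed onto other arrays. The AF2 placebo groups share no array with the MISS groups, though they lie on the same 4 slides and enter the same estimate of spread. There 2447 genes (9.04%) were called, 913 (3.37%) higher and 1534 (5.67%) lower in AF2 KO. Of the 230 genes, 207 (90.0%) had the same sign in both lines, against 49.9% of all genes: 92 of the 108 higher genes lay above 0 in the AF2 line, where 41.6% of all genes did, and 115 of the 122 lower genes lay below 0, where 58.4% did. Called the same way were 127 (55.2%, against 5.17% of all genes), 51 higher and 76 lower. Called the opposite way was 1 (0.435%, against 3.87%). The shared genes were 5.59% of those higher and 4.95% of those lower in AF2 KO. Tmem213, Akr1c14 and Csf3 differed by -5.65, -4.13 and -2.44 in the AF2 line, H19 by 1.98 and Cidea by 0.75.

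The lines also differed for some of these genes, by the test of the difference itself, which called 601 of all genes (2.22%), 446 (1.65%) with a positive difference and 155 (0.573%) with a negative one, and 28 of the 230, 21 with a positive difference and 7 with a negative one. Ppp2r2c fell by 1.95 in MISS KO and by 4.94 in AF2 KO, a difference between the lines of 3.0. Greb1, which did not pass in MISS, fell by 5.53 in AF2 KO, and the lines differed by 3.72. Emb went the other way, with -0.91 in the MISS line and -0.15 in the AF2 line, a difference of -0.76. The 230 genes were called on the MISS placebo arrays, which also enter this test. A larger difference in MISS than in AF2, as for Emb, may therefore be partly built in.

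On the E2 arrays of the MISS line itself, 764 genes (2.82%) differed between the genotypes, 237 (0.876%) higher and 527 (1.95%) lower. Of the 230 placebo genes, 172 (74.8%) had the same sign under E2, against 50.2% of all genes: 74 of the 108 higher genes lay above 0, where 40.1% of all genes did, and 98 of the 122 lower genes below 0, where 59.9% did. In all, 24 (10.4%, against 1.71%) were called the same way, 8 higher and 16 lower. The 24 included Akr1c14, Kcnk5, Ppp2r2c, Klk1, Klk1b24, Bst2 and Lgr5. The 4 called the opposite way (1.74%, against 1.11% of all genes) were all higher under placebo and lower under E2, Ano1 among them. The direct test of the change from placebo to E2 called 243 genes (0.898%) in all, 66 (0.244%) with a rising and 177 (0.654%) with a falling difference; 20 of the 108 higher genes had a falling difference and 20 of the 122 lower genes a rising one. That test shares the placebo arrays on which the genes were called, so movement back toward 0 is built into it, and the values under E2 are the independent ones.

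**Figure D5:**
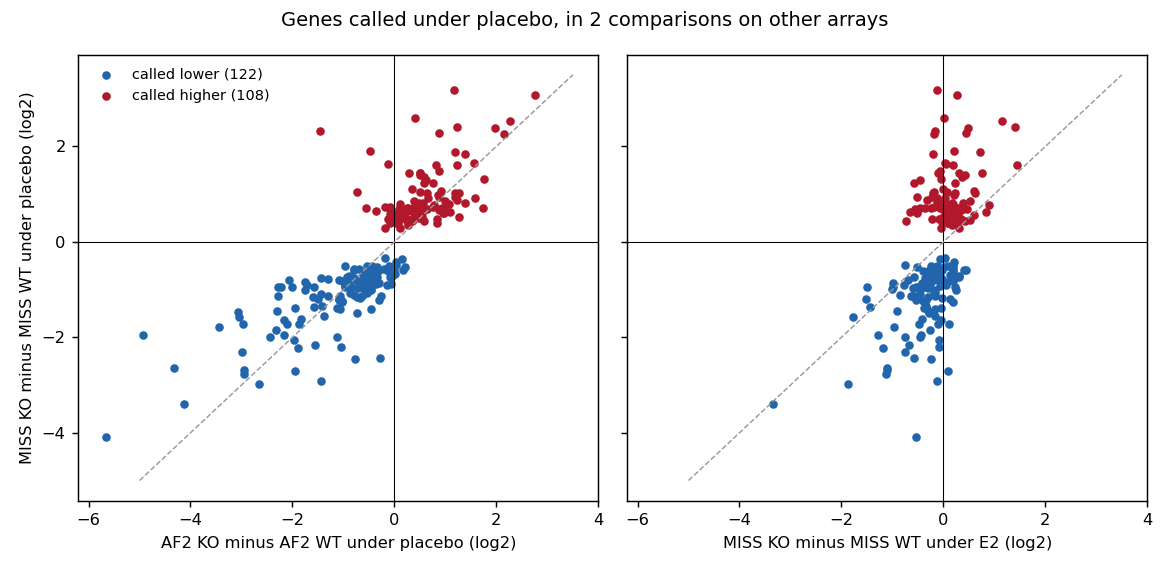
For each of the 230 called genes, MISS KO minus MISS WT under placebo (y axis, log2) against the same difference in AF2 KO minus AF2 WT under placebo and in MISS KO minus MISS WT under E2 (x axes, log2, 1 panel each); the dashed line marks equal values. In the AF2 panel 207 of 230 points lie in the quadrants of equal sign, and in the E2 panel 172.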

How the data were processed

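The members and lists were chosen with earlier results of these data known. Uterine total RNA was hybridised by the authors to 1-colour (Cy3) Agilent arrays and read out by Agilent Feature Extraction (version 10.10.1.1 in the submitters' processing notes). The deposited processed signal is an intensity with background subtracted and no normalization between arrays, per the file headers. Per the file headers, 0/1 marks give outlier spots and signals well above background. The authors also deposited a series matrix of log2 values for 43753 probes, with equal column medians of 7.56; it was used as an alternative, and its own steps are not given in the sources used here, though the notes name limma.

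Outlier spots were set missing, spots of a probe averaged, and each array's 75th percentile of log2 processed signal subtracted. A probe was tested if all arrays of 1 or more of the 8 groups had it well above background; a gene was its tested probe with the highest mean. limma 3.58.1 in R 4.3.3 (lmFit, eBayes; 8 group means, 31 arrays, 23 residual degrees of freedom plus a prior of 2.38) gave all p-values, adjusted by Benjamini-Hochberg over 27056 genes. A fold is given as "at least" where the dimmer group was not well above background on any array: the bright group's mean is set against the dimmer group's mean of the detection limit of each array or the probe's own signal where that was higher. On simulated data, 79% of 2-fold and 96% of 4-fold changes were recovered, and 10 of 26802 unchanged genes were called. The simulated noise was independent, with equal SD in all groups and no slide effect. The real MISS WT arrays were wider, so these shares may not hold for them. Named were genes from the 15 largest separate differences in each direction (1 is not reported here), called and extreme members of lists, receptor genes and called genes within 20 Mb of Esr1; named after their values were seen were Oxtr, Tff2, Ppp2r2b, Ppp2r2c, Emb, Msx2, Vldlr, Med24, Myo5c, Kcnk5, Kcne4, 4930562F07Rik, the kallikreins other than Klk1b27, Lrat, Rdh1, Rdh10, Meg3, Mirg, Ifi204, Penk, Ano1, Id3, Ncam1, Col4a6, Lag3, Atoh8 and Epha7. Intensities limit precision through the number of arrays. Sequences are from the array annotation (mm9) and RefSeq.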

Additional observations from a re-analysis of the deposited data

Results flagged for a closer look

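Some named genes differed between the genotypes by an amount that changed from placebo to E2, by the test of that change in limma. A change of the difference above 0 was found for Tmem213 (3.55), 4930562F07Rik (1.85), Ppp2r2b (1.57), Csf3 (1.56), Lrat (1.52), Vldlr (1.26), Myo5c (1.2), Med24 (0.99) and Emb (0.96), all lower in MISS KO under placebo. A change below 0 was found for 5430401H09Rik (-2.59), 9330159F19Rik (-1.63), the chromosome 12 lincRNA interval (-1.58), Ano1 (-1.28), Mirg (-1.18), Id3 (-1.0), Atoh8 (-0.87) and Penk (-0.79), all higher in MISS KO under placebo. The genes were chosen on the placebo arrays, which also enter this test.

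Other named genes had a placebo genotype difference that was not the same in the MISS and the AF2 line, by the test of that difference in limma. The MISS minus AF2 value was 3.72 for Greb1, 3.0 for Ppp2r2c, 2.38 for AK137313, 1.76 for the chromosome 12 interval, 1.56 for Tmem213, 1.48 for Tff2, 1.28 for Klk1 and 0.48 for Mtrf1l, and -0.76 for Emb. Except for Greb1, these genes had been called on the MISS placebo arrays, which also enter this test.

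In 156 groups of 4 values examined by Dixon's criterion, where chance marks about 1 in 20, 5 single values stood apart. This is not above the share that chance marks. AK137313 was at 0.44 on the MISS KO array of slide 4, against 1.18 to 1.19 on the others (its call was lost without MISS KO replicate 1, 2 or 3, at limma adjusted p of 0.0886, 0.0794 and 0.0761, and without MISS WT replicate 1 or 3, at 0.112 and 0.136). Rdh1 was at -3.5 on the MISS KO array of slide 3, against -4.2 to -4.12. On the MISS WT array of slide 2, the immunoglobulin segment ENSMUST00000103404 was at -3.41, against -0.71 to -0.48, and its call was lost without any one array except that array, at limma adjusted p of up to 0.157. Tff2 was at -2.96 on the same array, against -2.16 to -2.04. Ifi204 was at 1.53 on the MISS WT array of slide 4, against 2.45 to 2.56 on the others.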

How the results depend on the processing

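No paired analysis was possible because the labels give the groups no shared replicate numbers, as far as animals are concerned; arrays of both genotypes were paired by slide in the slide-block fits. No called named gene changed sign under any alternative run, and 6 of the list medians tried moved by more than the spread between replicates. Of 230 called genes (108 higher, 122 lower), counts were 426 (201, 225) with normexp and 375 (167, 208) in the authors' values, 839 (481, 358) with a slide block, 1593 (984, 609) with array weights, 78 (33, 45) on the 16 MISS arrays, 18 (3, 15) on the 8 arrays and 0 (0, 0) there with a slide block, where 3312 genes had an unadjusted p under 0.05. Quantile or median scaling, other filters and other probe rules gave 180 to 283. Leaving out 1 array gave 59 to 672 in all, 22 to 271 higher and 37 to 401 lower. The higher share was 47% of calls, and 57.3% with a slide block, 61.8% with array weights, 16.7% on the 8 arrays and 37.3 to 50% with 1 array left out. The percent called the same way under E2 was 10.4, and 6.57 with normexp, 6.67 in the authors' values and 6.7 to 20.3 with 1 array left out; the percent of equal sign was 74.8, and 63.8 with a slide block and 69.9 to 84.7 with 1 array left out. The cause of these shifts was not tested. Among named genes, 1349 values kept their side of the threshold, 315 lost the call and 13 gained it. Dim probes such as Lrat and Klk1b27 are limited by signal over background.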
